A study of Mus musculus with 4 samples.

Results

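The aminoacyl-tRNA synthetases of the cytosol and of the mitochondrion were examined in liver cells of mice that lack PNPase in hepatocytes. The list held 36 genes, of which 20 encode synthetases of the cytosol and 16, with symbols ending in 2, encode synthetases of the mitochondrion. They were found through the RefSeq accession of each array probe. A probe was named for 34 of the 36 genes, and 31 of these (18 cytosolic and 13 mitochondrial) gave a value among the 11357 named genes measured. RNA was hybridised on 4 two-colour Agilent arrays, on which each spot reads 2 RNA samples, labelled with the dyes Cy3 and Cy5.

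Hepatocyte knockout mice (HepKO) were C57BL/6J mice with both Pnpt1 alleles floxed (Pnpt1 fl/fl) and 1 copy of Albumin-Cre, a recombinase driven by a promoter active in hepatocytes. Wild-type partners (WT) were Pnpt1 fl/fl without Cre, so that both genotypes carried the floxed alleles. A pair labelled male was aged 12.29 weeks (12.9 weeks in another label), and a pair labelled female was aged 4.29 weeks, with 1 mouse per genotype in each. Each pair was run on 2 arrays with the dyes exchanged, and these were counted as 1 replicate, so that n = 2 pairs throughout. Cy5 carried the knockout RNA on replicate 1 and the wild-type RNA on replicate 2. The cells came from collagenase-perfused liver by pelleting, and the labels name no sort for hepatocytes. Array values are given below in the order male pair replicate 1, male pair replicate 2, female pair replicate 1 and female pair replicate 2, as log2 of HepKO over WT.

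Aminoacyl-tRNA synthetases join an amino acid to its tRNA and so supply the ribosome. Mammals keep separate nuclear genes for most of the cytosolic and the mitochondrial enzymes, while Gars and Kars serve both compartments. Several cytosolic synthetases are held together in a multisynthetase complex, and several are reported targets of ATF4, the transcription factor of the integrated stress response, which is switched on when amino acids run short or mitochondria fail. PNPase, the product of Pnpt1, is an RNA exonuclease found mainly in mitochondria.

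The labels were checked first. The brighter of 2 Pnpt1 probes read 0.31, 0.054, -0.38 and -0.38, with a mean of -0.10 ± 0.19 (moderated SE, n = 2 pairs, adjusted p = 0.743), and the dimmer read -0.67, -0.32, -0.50 and -0.60. The position of either probe relative to the floxed part was not established, so neither tests the deletion. 4 of 4 sex-chromosome genes checked ran against the labelled sex of both pairs, so male and female below are the labels' words. Of the hepatocyte markers, 0 of 8 measured passed the limma test, against 14.6% of all genes, with a median of 0.11. Of these 8, 1 (12.5%) had an unadjusted p below 0.05, against 35.96% of all genes. Many markers of other liver cells passed as higher in HepKO, beside 11.3% of all 11357 genes. They passed in 9 of 10 macrophage genes (median 1.97), 6 of 10 endothelial genes (median 1.00), 5 of 10 lymphocyte genes (median 1.03), 3 of 6 neutrophil genes (median 1.11), 3 of 8 stellate cell genes (median 0.74) and 1 of 5 cholangiocyte genes (median 0.57). The cholangiocyte share (20%) rested on 1 gene and was the nearest of these to that of all genes. Of 4 erythroid genes 1 was higher and 1 lower. Among the marker probes not kept for lack of signal over background were those of Cd79a, Krt7 and Cftr. The part of these other cells in the synthetase values was not tested, and in such bulk RNA more cells of a type cannot be told apart from more RNA per cell.

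Among the cytosolic synthetases, Vars and Hars were higher in HepKO, and none was lower at the threshold used throughout, a Benjamini-Hochberg adjusted p of 0.05 from limma. These 2 of 18 measured genes (11.1%) lie beside a background of 11.3% of all 11357 genes called higher, 3.25% called lower and 14.6% called in either direction. The share called among the cytosolic synthetases was thus near that of all genes. The cytosolic values lay above 0 in 14 of 18 genes, beside 6548 of all 11357 genes. Their median was 0.22 against 0.083 over all genes. With the probe used for each gene, 10 of the 18 were above 0 on every array measured, and 2 (Mars and Tars) were below 0 on every array. The like share of all genes was not counted. An unadjusted p below 0.05 was found for 5 (27.8%), against 4084 (35.96%) of all genes.

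Vars, the valyl-tRNA synthetase, had the highest ratio of the 31 genes that gave a value. Its log2 normalized intensity in HepKO was 11.52, 11.39, 11.13 and 10.94, against 9.66, 9.78, 9.97 and 9.70 in WT. Every HepKO level was above every WT level. Levels were normalized within each array and not scaled between arrays, so levels of different arrays are not strictly comparable. The ratios were 1.85, 1.61, 1.16 and 1.24, higher in HepKO on 4 of 4 arrays, with a mean of 1.47 ± 0.19 (moderated SE, n = 2 pairs, 95% confidence interval 0.93 to 2.00, adjusted p = 0.0263), a 2.76-fold difference. A second probe of the gene gave 1.38 ± 0.17. The call was lost when dim probes were kept (adjusted p = 0.0874) and when the background model was fitted on all spots (adjusted p = 0.112), settings in which 0 genes of the whole table passed, and was kept in the other 13 of 15 alternatives.

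Hars, the histidyl-tRNA synthetase, read 11.23, 11.49, 11.69 and 11.75 in HepKO and 10.85, 10.49, 11.00 and 10.66 in WT, as log2 normalized intensity. HepKO was above WT on each array, with the smallest gap on male pair replicate 1. Its ratios were 0.38, 1.00, 0.69 and 1.09, with a mean of 0.79 ± 0.15 (moderated SE, n = 2 pairs, 95% confidence interval 0.38 to 1.20, adjusted p = 0.0458). The ratio was larger on the arrays with HepKO in Cy3 than on those with HepKO in Cy5 in both pairs. The call rested on single arrays, since it was lost without male pair replicate 2 (adjusted p = 0.127), without female pair replicate 1 (0.0535) and without female pair replicate 2 (0.0542). It was also lost with the deposited log ratios (adjusted p = 0.0956). The call was kept in 7 of its 15 alternatives, over which the adjusted p ran from 0.0135 to 0.127.

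3 further cytosolic enzymes had large ratios that did not pass. Sars, the seryl-tRNA synthetase, gave 0.89 on male pair replicate 1, 0.46 on female pair replicate 1 and 0.60 on female pair replicate 2, and its spot on male pair replicate 2 was left out for a background flag. Its fit therefore rested on 3 arrays and gave 0.71 ± 0.17 (adjusted p = 0.0671). Wars, the tryptophanyl-tRNA synthetase, gave 0.61, 0.69, 0.56 and 0.48, with a mean of 0.59 ± 0.14 (adjusted p = 0.0726). Its 4 arrays lay closer together than those of Vars or Hars, and its dimmer probe gave 0.33. Aars, the alanyl-tRNA synthetase, gave 0.81, 0.94, 0.19 and 0.36, with a mean of 0.58 ± 0.21 (adjusted p = 0.137). Both arrays of the male pair were above both arrays of the female pair. A second, dimmer probe of Aars gave 0.67, 0.86, -0.15 and 0.39, with a mean of 0.44.

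The other cytosolic enzymes lay between -0.32 and 0.38 and none passed. Gars, the glycyl enzyme, was at 0.38, Eprs, the joint glutamyl and prolyl enzyme, at 0.33, Kars, the lysyl enzyme, at 0.30 on 3 arrays, Yars, the tyrosyl enzyme, at 0.23, and Qars, the glutaminyl enzyme, at 0.21. With the probe used, these were above 0 on every array measured. Further Eprs probes gave means of 0.090, 0.18 and 0.12, and the dimmer Qars probe -0.035. On male pair replicate 1 the last 2 of these Eprs probes read -0.18 and -0.20, and that Qars probe -0.49. Rars (arginyl) was at 0.12, Iars (isoleucyl) at 0.089, Cars (cysteinyl) at 0.033, Nars (asparaginyl) at 0.0046, Farsb (the beta subunit of the phenylalanyl enzyme) at -0.020 and Dars (aspartyl) at -0.19. Nars, Rars, Farsb and Dars were below 0 on both arrays with HepKO in Cy5 and above 0 on both with HepKO in Cy3, so their sign followed the dye. Mars, the methionyl enzyme, gave -0.48, -0.15, -0.44 and -0.19, and Tars, the threonyl enzyme, gave -0.62, -0.093, -0.42 and -0.072. Both were below 0 on all arrays, with adjusted p of 0.194 for Mars and 0.218 for Tars.

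**Figure D1:**
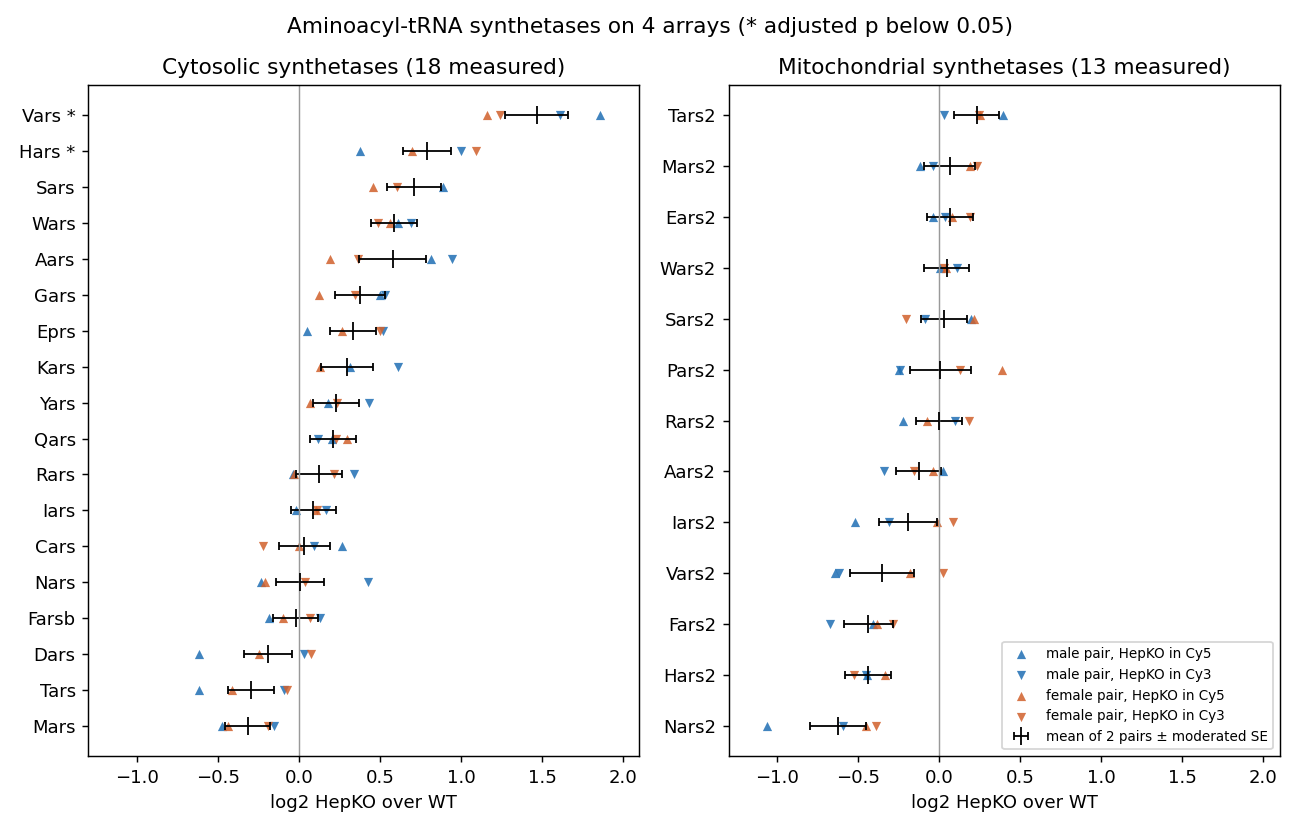
Log2 ratio of HepKO over WT for the 18 cytosolic (left) and 13 mitochondrial (right) synthetases measured, with 1 triangle per array, coloured by pair and pointing by dye, and a bar for the mean of 2 pairs ± moderated SE. Vars (1.47) and Hars (0.79) carry the asterisk of an adjusted p below 0.05, and the mitochondrial enzymes spread from -0.62 to 0.23.

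Among the mitochondrial synthetases 0 of 13 measured genes passed the limma test, against 14.6% of all genes, and 3 (23.1%) had an unadjusted p below 0.05, against 35.96% of all genes. With the deposited log ratios in place of the normalized intensities 1 gene, Hars2, passed as lower (log2 -1.03, adjusted p = 0.0436). Values were above 0 in 6 genes and below 0 in 7, with a median of -0.0037, beside 6548 of all 11357 genes above 0. Fars2, Hars2 and Nars2 were below 0 on all 4 arrays, and Tars2 and Wars2 above 0 on all 4 with the brighter probe. The dimmer kept probe of Wars2 gave -0.58, -0.15, -0.38 and -0.068, and that of Tars2 0.22, -0.031, 0.051 and 0.30.

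Nars2, the mitochondrial asparaginyl-tRNA synthetase, had the lowest ratio. Its log2 normalized intensity was 7.97, 8.02, 8.88 and 8.47 in HepKO and 9.04, 8.62, 9.33 and 8.86 in WT. HepKO was below WT on each array, but the genotypes overlapped between the pairs, whose arrays were not scaled to each other. The ratios were -1.06, -0.60, -0.45 and -0.39, with a mean of -0.62 ± 0.17 (adjusted p = 0.0899), and a second probe gave -0.48. That second probe was near the floor, with a mean log2 intensity of 6.43. The Farsa probe, not well above background on any array, had 6.00.

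Hars2, the mitochondrial histidyl enzyme, gave -0.44, -0.45, -0.33 and -0.53, with a mean of -0.44 ± 0.14 (adjusted p = 0.114). Its probe was dim, with a mean log2 intensity of 7.20, although well above background on all 4 arrays. Its levels were 7.03, 6.78, 7.23 and 6.86 in HepKO and 7.48, 7.23, 7.57 and 7.39 in WT. The highest HepKO level and the lowest WT level were alike to 2 decimals, on arrays not scaled to each other. Fars2, the mitochondrial phenylalanyl enzyme, gave -0.41, -0.67, -0.39 and -0.28, with a mean of -0.44 ± 0.15 (adjusted p = 0.127). All 4 arrays lay on the same side of 0 for both genes, although neither passed.

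For the remaining mitochondrial enzymes the mean was -0.35 for Vars2 (valyl), -0.19 for Iars2 (isoleucyl), -0.13 for Aars2 (alanyl), -0.0037 for Rars2 (arginyl), 0.0058 for Pars2 (prolyl), 0.029 for Sars2 (seryl), 0.047 for Wars2 (tryptophanyl), 0.065 for both Ears2 (glutamyl) and Mars2 (methionyl), and 0.23 for Tars2 (threonyl). Vars2 and Iars2 were lower in the male pair than in the female pair. Vars2 gave -0.64 and -0.62 on the male arrays but -0.18 and 0.024 on the female arrays. Iars2 gave -0.52 and -0.31 on the male arrays but -0.016 and 0.083 on the female arrays. For Sars2 the sign followed the dye, above 0 on both arrays with HepKO in Cy5 and below 0 on both with HepKO in Cy3, and Rars2 showed the opposite arrangement.

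The cytosolic set was above the mitochondrial set on every array. Medians of the cytosolic genes were 0.19, 0.42, 0.11 and 0.23, and those of the mitochondrial genes -0.22, -0.24, -0.016 and 0.027. The difference of the medians, cytosolic minus mitochondrial, was 0.42, 0.67, 0.13 and 0.20 on the 4 arrays, and 0.22 over the gene means. It was 0.39 in the male pair and 0.11 in the female pair. It ranged from 0.15 to 0.39 under 15 alternative settings. Because there are 2 pairs no test of this difference was made, and the genes of a set share arrays and are not replicates.

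**Figure D2:**
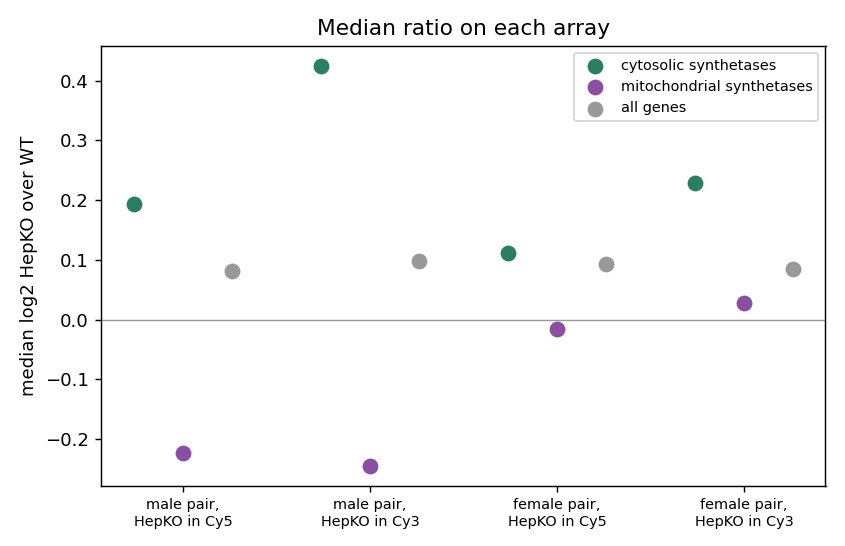
Median log2 ratio of HepKO over WT on each of the 4 arrays for the 18 cytosolic synthetases, the 13 mitochondrial synthetases and all 11357 genes. The cytosolic median lies above that of all genes on every array, and the mitochondrial median lies below it, farther in the male pair (-0.22 and -0.24) than in the female pair (-0.016 and 0.027).

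13 pairs of a cytosolic and a mitochondrial enzyme for the same amino acid could be set side by side, with Eprs set against both Ears2 and Pars2. In 11 pairs the cytosolic gene had the higher ratio, in 10 of them on every array measured, and the median difference was 0.42. Valine stood widest apart, with Vars minus Vars2 at 2.50, 2.22, 1.35 and 1.22 and a mean of 1.82. Histidine followed, with Hars minus Hars2 at 0.82, 1.45, 1.03 and 1.62 and a mean of 1.23. In both amino acids the cytosolic gene was above 0 and the mitochondrial gene below 0 in the mean.

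For alanine the difference was 0.70, for serine 0.68 (3 arrays), for asparagine 0.63, for tryptophan 0.54 and for phenylalanine (Farsb minus Fars2) 0.42. In asparagine and phenylalanine it came from the low mitochondrial gene, since Nars and Farsb were near 0. Methionine and threonine ran the other way on all 4 arrays. Mars minus Mars2 had a mean of -0.38, and Tars minus Tars2 a mean of -0.53. These differences are descriptions and were not tested.

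**Figure D3:**
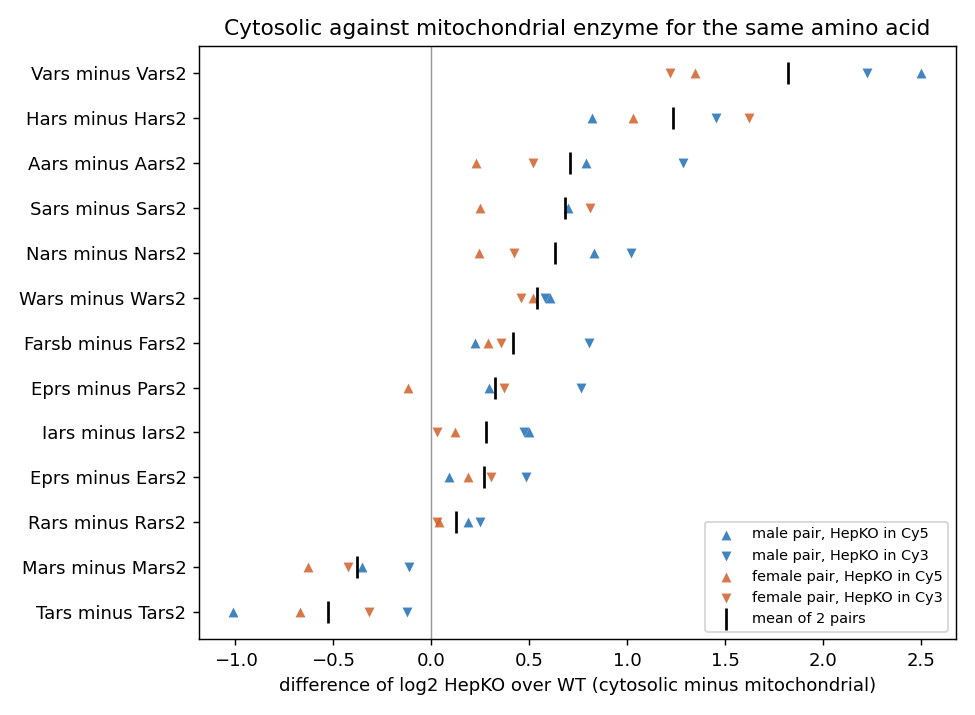
Difference of log2 HepKO over WT between the cytosolic and the mitochondrial enzyme for the same amino acid, with 1 triangle per array and a bar for the mean of 2 pairs. The 13 comparisons run from 1.82 for valine to -0.53 for threonine, and all arrays lie below 0 only for methionine and threonine.

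Cytosolic genes were then grouped by known features. Of the 12 measured genes reported as ATF4-dependent or amino-acid-responsive, 1 (Vars) was higher and the median was 0.28, and of the other 6 cytosolic genes 1 (Hars) was higher and the median was 0.17. The 7 measured enzymes of the multisynthetase complex (Dars, Eprs, Iars, Kars, Mars, Qars and Rars) had 0 calls, 0 with an unadjusted p below 0.05, and a median of 0.12. The 11 enzymes outside it held both calls, with a median of 0.38. Of these 11, 5 (45.45%) had an unadjusted p below 0.05, against 35.96% of all genes. By catalytic fold, the 8 class I enzymes had 1 call (Vars) and a median of 0.17, and the 9 class II enzymes 1 call (Hars) and a median of 0.30. Each of these medians lay above the 0.083 of all genes, and the differences between groups were not tested. In the order given, the shares called were 8.33%, 16.7%, 0%, 18.2%, 12.5% and 11.1%, against 14.6% of all genes. With so few genes in each group, these shares do not set the groups apart. The median of the complex enzymes lay below that of all genes in 5 of 15 alternatives (without male pair replicate 2 it was 0.043 against 0.085), and the class II median in 1, at 0.0046 against 0.046 when a probe had to be well above background on all arrays.

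Promoter letters were read for the genes with a window in the RefSeq table of assembly GRCm38.p6, which runs from 250 bases before to 50 bases after a gene's start. Windows matched 13 of the 20 cytosolic and 14 of the 16 mitochondrial genes. No window was matched for Cars, Hars, Lars, Nars, Rars, Vars, Wars, Hars2 and Pars2. TGATGCAA, the core of the response element that ATF4 binds with C/EBP partners, was searched on both strands. It was found for 4 of the 13 cytosolic genes with a window, among them Iars, Tars and Yars, and for 0 of the 14 mitochondrial genes. 294 of all 32851 windows (0.895%) held it, which is a share of windows and not of genes. The stretches of these 3 are shown as examples of the match. Each is written 5′ to 3′ on the strand of its gene, with the matching letters, or their reverse complement, in capitals.
Iars, chr13:49682127-49682154, plus strand: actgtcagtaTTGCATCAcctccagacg
Tars, chr15:11399656-11399683, minus strand: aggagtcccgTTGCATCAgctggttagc
Yars, chr4:129189896-129189923, plus strand: cgagctcagcTGATGCAAcccgacggga

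The match begins 15 bases before the start in Tars, 7 bases after it in Iars and 3 bases after it in Yars. The broader TGATGNAA, which contains the first motif, added Gars for 5 of 13 cytosolic genes, with 0 of 14 mitochondrial genes and 3.97% of all windows. A match describes letters and does not show binding.

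Genes that assist the synthetases were compared with them. Of 9 measured scaffold and partner genes of cytosolic charging 0 passed and 3 (33.3%) had an unadjusted p below 0.05, near the 35.96% of all genes, with a median of -0.38. Dtd1, which clears mischarged D-amino acids from tRNA, was at -1.04 ± 0.25 (adjusted p = 0.0698). Pstk and Sepsecs, which act in turn to make selenocysteinyl-tRNA, were at -0.52 and -0.48. Eef1e1, a small protein of the multisynthetase complex, was at 0.37, and the scaffold genes Aimp1 and Aimp2 at -0.077 and 0.21. The list as a whole thus had a median below 0 while the cytosolic enzymes had one above 0. Among the complex proteins of the list, Eef1e1 was above 0 on all 4 arrays and Aimp1 below 0 on all 4. Aimp2 was above 0 in the mean but at -0.23 on male pair replicate 2, so these proteins did not share a sign.

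Of 5 partner genes of mitochondrial charging 0 passed and 1 had an unadjusted p below 0.05, with a median of -0.19. Gatb, a subunit of the amidotransferase that makes mitochondrial glutaminyl-tRNA, was at -0.63 (adjusted p = 0.107), and Mtfmt, which formylates the initiator methionyl-tRNA, at -0.33. Of 12 genes that process and modify mitochondrial tRNA 0 passed and 0 had an unadjusted p below 0.05, with a median of -0.039.

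Other ATF4 targets had higher ratios than the synthetases as a set. Among 29 measured ATF4 amino acid and stress targets 8 (27.6%) were higher and 0 lower, against 11.3% and 3.25% of all genes. Their median was 0.86, with 1.08 in the male pair and 0.51 in the female pair. Values were above 0 in 24 of the 29, beside 6548 of all 11357 genes, and the lowest, Shmt2, was at -0.88. Nupr1, a stress-induced chromatin protein, was at 5.26 (3 arrays), Atf3 at 3.86, Ddit3, which encodes CHOP, at 3.04, and Psat1 of serine synthesis at 2.28. Asns, which makes asparagine, was at 2.08 on 3 arrays (adjusted p = 0.0655), and Atf4 itself at -0.064 (adjusted p = 0.865).

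**Figure D4:**
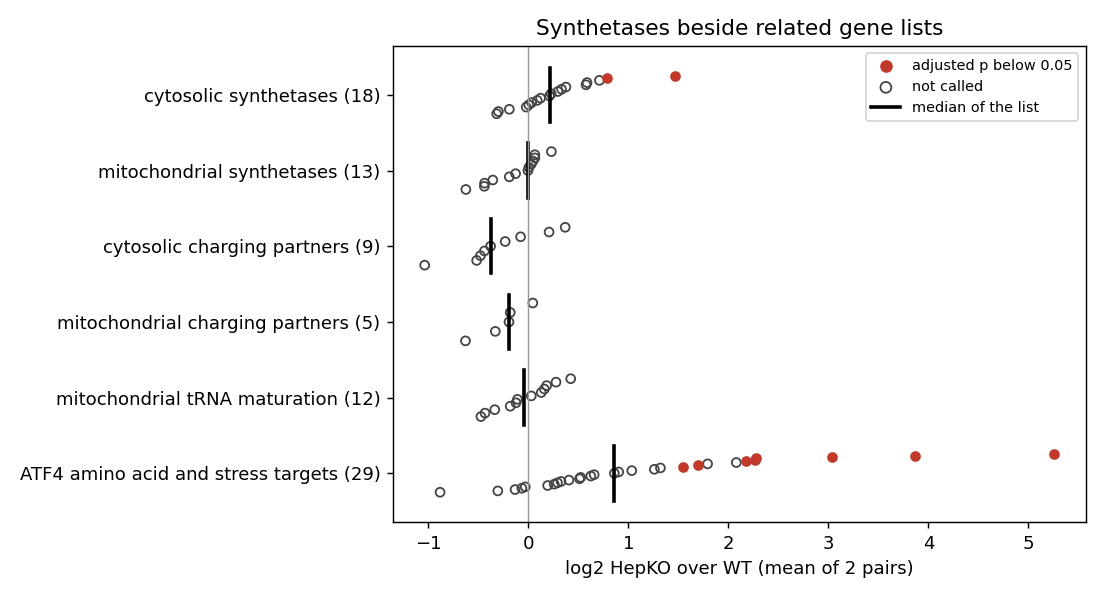
Log2 ratio of HepKO over WT (mean of 2 pairs) of each measured gene, by list, with filled points for an adjusted p below 0.05 and a bar at each median. The cytosolic synthetases (median 0.22) and mitochondrial synthetases (median -0.0037) lie below the ATF4 targets (median 0.86).

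Genes next to the synthetases were listed from the order of protein-coding genes in GRCm38.p6, taking every measured gene that overlaps a measured member or lies within 1 kb of it. This comparison was chosen after the values had been seen. D17H6S56E-5 is the neighbour of Vars and was at 6.18, 5.16, 5.72 and 5.20, with a mean of 5.57 ± 0.15 (adjusted p = 0.0133), far above the 1.47 of Vars. Hars and Hars2 overlap at their ends and had ratios of opposite sign, 0.79 and -0.44. Mars overlaps Ddit3, and these were at -0.32 and 3.04, so that a large ratio of one was not seen in the other. Aars overlaps Ddx19b, an RNA helicase gene at -0.72 (adjusted p = 0.0671). The remaining neighbours were not called. Whether transcripts of D17H6S56E-5 reach the probes of Vars was not tested.

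5 members gave no value. No probe was named for Lars and Cars2, and the probe of Farsa was not well above background on any array. The spots of Lars2 and Yars2 carried background flags, on both female arrays for Lars2 and on 3 of 4 arrays for Yars2. With spots kept where only the background population was flagged, Yars2 gave 0.31, 0.075, 0.053 and 0.010 (mean 0.11, adjusted p = 0.617), which leaves it near 0. Lars2, the mitochondrial leucyl enzyme, then gave 6.11, -0.49, 1.10 and -0.35 (mean 1.59 ± 0.62, adjusted p = 0.152). Its raw signal on male pair replicate 1 was 6020 in WT and 218680 in HepKO, whereas on male pair replicate 2 the same RNA samples read 368130 and 165183. The large ratio of Lars2 thus stood on 1 array alone and turned sign with the dyes exchanged.

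Of the 13 members with more than 1 kept probe, 4 (Cars, Iars, Qars and Wars2) had probes on both sides of 0. The brighter probes, which stand for these genes, gave 0.033, 0.089, 0.21 and 0.047, and none was called. For Vars, Nars2, Mars and Tars both probes gave the same sign, with the second probe at 1.38, -0.48, -0.26 and -0.49.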

How the data were processed

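Per the file headers, Agilent Feature Extraction 10.2.1.3 quantified the scans. The deposited intensity values used here are each spot's mean and its local background's median, with nothing subtracted. The deposited log10 ratios in the same files and in the authors' value table (HepKO over WT, median 0 in each column) served as alternatives. Further steps by the authors are not given in the sources used here.

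In limma 3.58.1 under R 4.3.3, spots flagged for non-uniformity or as population outliers, for spot or background (1465 to 2056 per array), were left out, signals corrected by normexp (offset 50), and ratios normalized by loess. A probe was kept if well above background on both arrays of 1 pair in 1 genotype (22597 of 41174). Accessions named 22951 probes (55.7%) through a RefSeq table of assembly GRCm38.p6. The probe annotation refers to an older build, so no probe positions are given; promoter positions are those of the RefSeq table. Each gene took the value of its brightest kept probe. The 2 dye orientations were averaged, and an intercept model with eBayes was fitted on 2 pair values, with Benjamini-Hochberg adjustment over 11357 genes. The number of arrays limits precision: there is 1 residual degree of freedom, with 2.97 more borrowed across genes. Sex, age, slide and pair cannot be told apart. The script was tested on simulated data.

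Members, lists and rules were chosen with earlier results of these data known. Full values are given for called members and for the 3 cytosolic and 3 mitochondrial members of largest change that were not called. Of each other list the 2 to 4 largest changes, and Pnpt1, were to be named. Aimp1, Aimp2, Eef1e1, Asns, Atf4, Shmt2 and the neighbouring genes were named after their values were seen. Some planned items are not reported here.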

Additional observations from a re-analysis of the deposited data

Results flagged for a closer look

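In 3 synthetase genes every array of the male pair lay on one side of 0 and every array of the female pair on the other. Pars2 was at -0.245 in the male pair and 0.257 in the female pair. Mars2 was at -0.0790 in the male pair and 0.210 in the female pair. Cars was at 0.178 in the male pair and -0.112 in the female pair. The difference between the pairs was not tested, since each pair is 1 replicate. None of the 3 genes passed the limma test of HepKO against WT.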

How the results depend on the processing

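The difference of the cytosolic and mitochondrial medians stayed above 0 under all 15 alternatives tried, and Vars was higher in each of them by 1.37 to 1.57. 1 alternative, which kept spots with only a background population flag, was chosen after seeing the data and tested 11509 genes, of which 1806 passed. The test was already paired, because each ratio sets the HepKO and WT mouse of a pair against each other. No further numbers link the pairs. The number of arrays limits what can be called. The cause of the changes below was not tested.

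With no filter on dim probes (16221 genes tested, 4555 genes with unadjusted p below 0.05 and no adjusted p under 0.0722) and with normexp fitted on all spots (2965 genes with unadjusted p below 0.05 and no adjusted p under 0.0596), 0 genes passed in either direction, which left 0 cytosolic synthetases and 0 ATF4 targets called. The number of genes lower was 574 with the Feature Extraction log ratio, 558 with the authors' table and 710 with only the Cy3-labelled HepKO arrays. Cytosolic synthetases called higher numbered 1 with the Feature Extraction log ratio, with the authors' table and with only the Cy5-labelled HepKO arrays, and 1 to 2 without 1 array. 5 ATF4 targets passed under the strict filter. With only the Cy3-labelled HepKO arrays 1 scaffold and partner gene of cytosolic charging and 1 partner gene of mitochondrial charging passed. With the Feature Extraction log ratio, and with the authors' table, 1 mitochondrial synthetase (Hars2) was lower.

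Medians moved as follows. The Feature Extraction log ratio and the authors' table gave 1.27 for the ATF4 targets, -0.43 for the mitochondrial charging partners, -0.18 for mitochondrial tRNA maturation, -0.20 for the mitochondrial synthetases, 0.099 for class I, 0.0035 for the multisynthetase complex and 0.087 for the cytosolic genes not reported as ATF4 targets. Median centring gave 0.31 for the cytosolic synthetases, 0.15 for the mitochondrial synthetases, 0.17 for mitochondrial tRNA maturation, 0.25 for class I, 0.17 for the complex and 0.22 for the cytosolic genes not reported as ATF4 targets. The mean over a gene's probes gave 0.15 for the cytosolic synthetases, 0.20 for the ATF4-reported group, 0.11 for class I, 0.088 for the complex and 0.11 for the genes not reported. HepKO in Cy5 alone gave 0.14 for the cytosolic synthetases, 0.14 for the ATF4-reported group, 0.13 for class I, 0.041 for the complex and 0.095 for the genes not reported, and HepKO in Cy3 alone gave 0.23 for class I. Normexp on all spots gave 0.13 for class I and 0.076 for the complex. No filter and the strict filter gave 0.12 for the genes not reported, and the strict filter gave 0.0046 for class II. Without 1 array the median ran from 0.19 to 0.33 in the ATF4-reported group, from 0.12 to 0.20 in class I, from 0.043 to 0.19 in the complex and from 0.13 to 0.20 in the genes not reported.

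12 uncalled members changed sign in some setting. With the Feature Extraction log ratio, and with the authors' table, Cars was at -0.062, Ears2 at -0.066, Mars2 at -0.11, Nars at -0.10, Pars2 at -0.20, Rars at -0.027, Sars2 at -0.067 and Wars2 at -0.15. Median centring gave 0.016 for Aars2, 0.15 for Farsb and 0.15 for Rars2. The mean over probes gave -0.063 for Cars and -0.13 for Wars2, and normexp on all spots -0.021 for Nars and -0.024 for Pars2. HepKO in Cy3 alone gave -0.065 for Cars, 0.054 for Dars, 0.10 for Farsb, -0.058 for Pars2, 0.14 for Rars2 and -0.15 for Sars2, and HepKO in Cy5 alone -0.22 for Nars and -0.034 for Rars.
Without 1 array Cars ran from -0.022 to 0.089, Farsb from -0.10 to 0.059, Nars from -0.16 to 0.17, Pars2 from -0.058 to 0.070, Rars2 from -0.083 to 0.076 and Sars2 from -0.075 to 0.13.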
